A study of Mus musculus with 6 samples.

Results

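The genes described are 10 components of the Notch signalling pathway, of the 55487 gene rows measured in each library: the receptors Notch1, Notch2, Notch3 and Notch4, the ligands Jag1, Jag2, Dll1 and Dll4, and the target genes Hes1 and Hey1. They were chosen by name, as the rows whose gene symbol equals one of these, and each name matched a single row. RNA sequencing was done on mammary tumours of MMTV-PyMT mice, a transgenic model in which the promoter of the mouse mammary tumour virus drives the polyoma middle T oncogene mainly in mammary epithelium. There were 3 libraries from mice given the liver X receptor (LXR) agonist DMHCA and 3 from mice given vehicle, both by mouth in Medigel cups without a break from an age of 6 weeks. Animals of both groups carry the transgene, so tumours without it were not compared. The titles of a group share a code that differs between the groups, so what it marks cannot be told apart from treatment. The labels do not give the age at collection or say that each library is a different mouse. The p-values below therefore set the group difference only against the spread within groups among these 6 libraries, and that spread may be partly technical.

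Notch receptors are single-pass membrane proteins that are activated by ligands of the Jagged and Delta-like families on a neighbouring cell. Ligand binding exposes the receptor to the protease ADAM10 and then to the γ-secretase complex, which frees the intracellular domain to enter the nucleus, where it binds the DNA-binding protein RBPJ and a Mastermind coactivator and switches on repressors of the Hes and Hey families. In the mammary gland the pathway is known for its part in luminal cell fate, and in blood vessels for sprouting and for the maintenance of mural cells.

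The libraries held between 36577451 and 42595799 expected counts, and all 10 genes passed the filter on low counts in them. The least covered was Notch4, with between 100 and 190 expected counts per library. The 12 luminal epithelial markers were above 0 in every library. They summed to between 3211 and 3573 TPM (transcript abundance scaled for length and depth) with agonist and between 3579 and 3748 TPM with vehicle. The luminal sum was thus lower in each agonist library, but by a narrow margin. In log2 CPM (log2 of counts scaled to library totals) the mean deviation of the list overlapped between groups. It was -0.0319 in agonist replicate 1 and -0.0398 in vehicle replicate 1. By log2 fold change, 4 of the 12 markers were higher and 8 lower with agonist. The part of luminal content in the values below was not tested. Higher with agonist were 9 of 10 basal, 11 of 12 endothelial, 8 of 8 fibroblast, 6 of 9 mural and 5 of 8 leukocyte markers. Over all tested genes, 8579 of 17396 were higher. At an unadjusted edgeR p under 0.05, 4 basal markers were higher, where 0.719% of all tested genes were. None passed adjustment, and the part of these cell types was not tested. Markers of the other cell types also differed between libraries, and vehicle replicate 3 stood apart. Its fibroblast markers summed to 176 TPM, against 701 to 1704 in the other 5 libraries, and its basal markers to 44.2 TPM, against 135 to 337. In pieces of whole tumour, fewer cells of a type and less RNA per cell cannot be told apart.

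The comparison of agonist with vehicle asks which genes respond to LXR activation. In CPM, each agonist library had less Notch3 and Notch1 and more Jag2 than every vehicle library, while Hey1 had a lower mean with overlapping groups. In TPM the groups of Notch3, Notch1 and Jag2 overlapped. Only Jag1 of the 10 did not overlap in TPM, and it was higher with agonist. The share of all genes without overlap was not taken on that scale. None of these differences passed the test over all genes. The test was edgeR's quasi-likelihood test with Benjamini-Hochberg adjustment, in which 0 of 17396 genes, or 0%, passed an adjusted p of 0.05, and the 10 Notch genes each had an adjusted p of 0.99. At an unadjusted p under 0.05, edgeR gave 538 of these 17396 genes, 125 higher and 413 lower (182 and 331 with upper-quartile factors). DESeq2 was run without the filter on low counts and gave 772, where edgeR with no filter gave 847. DESeq2 called 8 genes, none of them a Notch gene of the 10. Of the 10, edgeR placed 3 under an unadjusted p of 0.05, namely Notch1, Notch3 and Hey1. All 3 were lower with agonist, in a table where 2.37% of genes were lower at that threshold and 0.719% were higher. The genes behind that count changed with the libraries used. Without agonist replicate 1 there were 2, Notch3 and Hes1, both lower with agonist, where 171 genes in all were higher and 274 lower. Without vehicle replicate 2 there were 2, Notch3 and Hey1, both lower, where 1188 genes in all were higher and 1254 lower. Only 1, Notch3, was left without agonist replicate 3, vehicle replicate 1 or vehicle replicate 3. Those fits gave 92, 103 and 142 higher and 223, 273 and 434 lower genes in all. Without agonist replicate 2 the count stayed at 3, but Jag1, higher with agonist, took the place of Hey1. That fit gave 166 higher and 454 lower genes in all. With all 6 libraries and no filter on low counts the count of members was 5, where 272 genes in all were higher and 575 lower. Jag1 and Jag2, both higher with agonist, then joined Notch1, Notch3 and Hey1. With limma-trend on log2(TPM + 1) it was 0, and the split over all genes was 266 higher and 128 lower. In CPM, the groups did not overlap in 2 members that were lower and 1 that was higher, where 4.22% and 3.02% of all tested genes did so. The log2 fold changes of the 10 were negative in 7, with a median of -0.35, beside a median of -0.0049 over all tested genes.

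**Figure D1:**
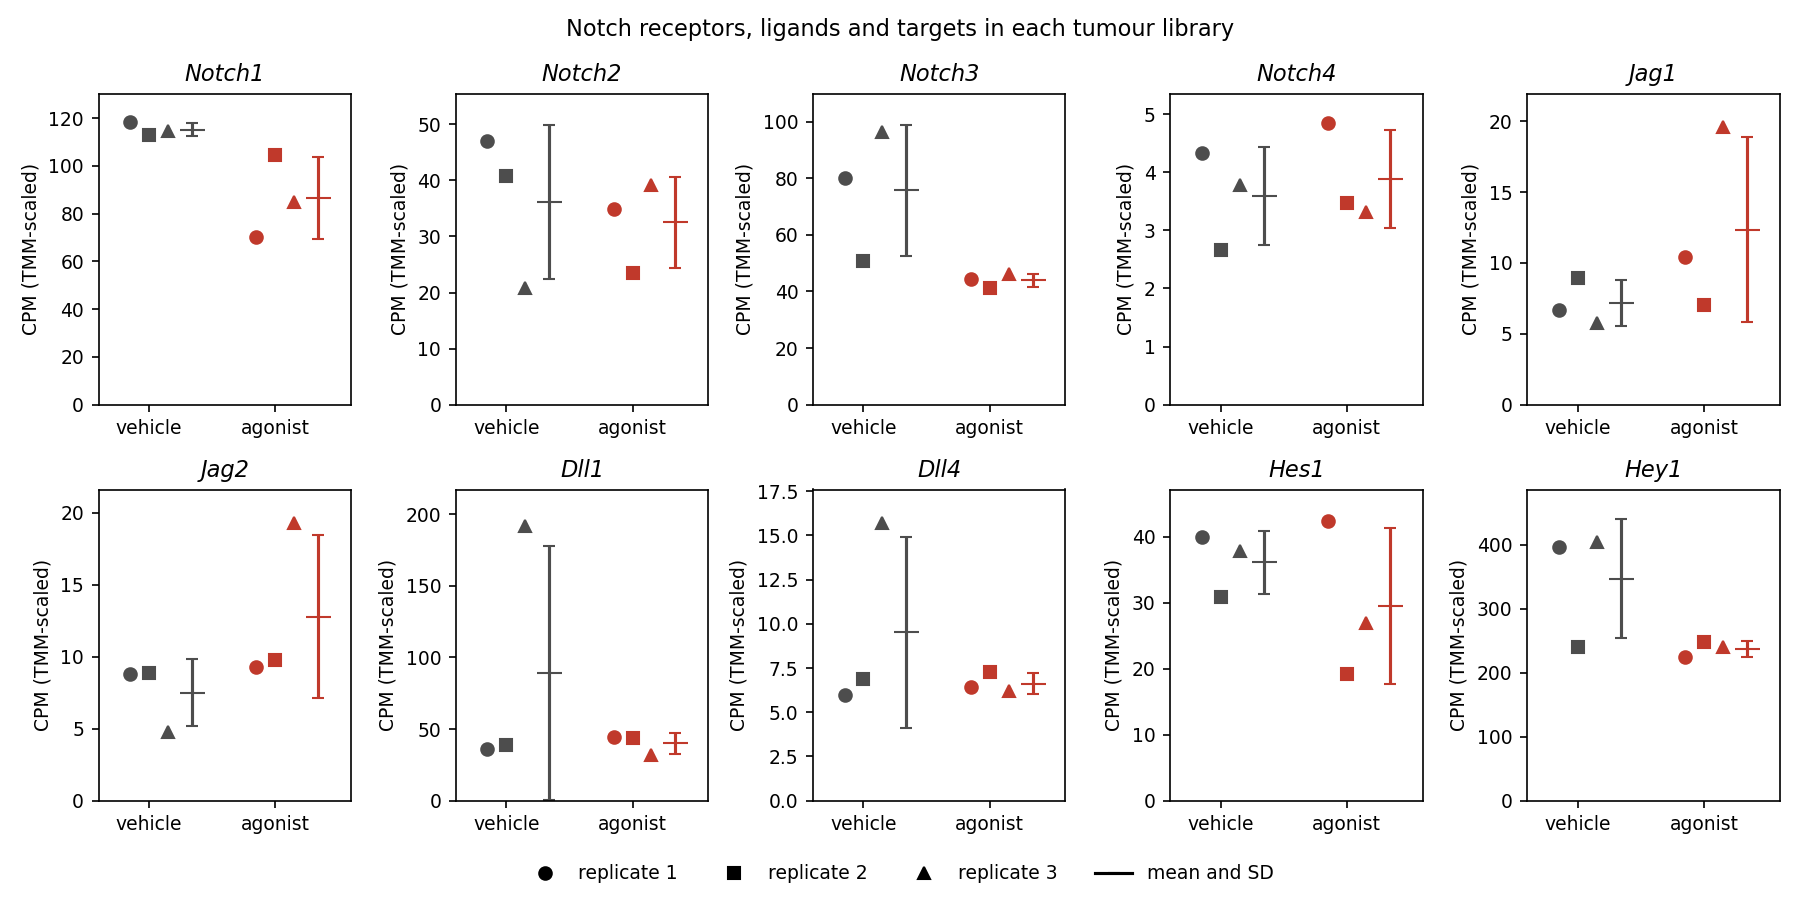
Normalised counts of the 10 Notch genes (CPM, y axis from 0, own scale per gene) in the 3 vehicle and 3 agonist libraries, with the group mean and SD beside the points. Vehicle replicate 2 lies close to the agonist libraries for Notch3 and Hey1, vehicle replicate 3 stands apart for Dll1 (191 CPM) and Dll4, and agonist replicate 3 for Jag1 and Jag2.

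Per transcript length, the target Hey1 was the most abundant of the 10, with a median of 129 TPM over the 6 libraries (range 106 to 227), above 94.9% of the tested genes. Hes1 followed with a median of 31.6 TPM (19.3 to 42.8), and its range did not reach that of Hey1. Dll1 was the leading ligand at a median of 21.8 TPM (14.9 to 107), and its level crossed that of Hes1, which was the higher in 4 of 6 libraries. Notch1, at 13.3 TPM (8.04 to 16.5), was the leading receptor by its median, and Notch3, at 7.87 TPM (6.86 to 18.1), was below it in 4 of 6 libraries. These ranges overlapped, so the order of Notch1 and Notch3 does not hold beyond their spread.

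The remaining 5 genes had lower medians, with overlapping ranges. Notch2 had a median of 3.58 TPM (2.19 to 5.28), below the range of Notch3. Jag2 had 3.55 TPM (1.86 to 7.61), and its range reached into that of Notch3. Notch4 had 3.21 TPM (1.26 to 3.51), Dll4 had 1.96 TPM (1.79 to 4.9) and Jag1 had 1.83 TPM (1.28 to 4.8). The TPM of Notch4 rest on weighted transcript lengths of 1444 to 2492 bases, where its full-length coding transcript has 6591. In CPM, which are not scaled for length, Notch4 was the lowest of the Notch genes described in every library. Dll1 alone made up between 56.6% and 79.9% of the summed TPM of the 4 ligands in the agonist libraries and between 66.7% and 93.0% in the vehicle libraries. The summed TPM of the 4 receptors was 22.0, 27.2 and 23.8 in agonist replicates 1, 2 and 3 and 42.5, 24.97 and 40.2 in vehicle replicates 1, 2 and 3. A single row, CT010467.1, took 5.55% of the counts of vehicle replicate 2, and TPM are shares of a library, so differences between groups are given below in CPM (counts scaled to library totals adjusted by the TMM method).

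Among the receptors, Notch3, which is best known for its role in vascular mural cells, showed the lowest unadjusted p of the 10. It lies on chromosome 17 (32120820 to 32166852, minus strand, GRCm38). Its levels were 44.4, 41.3 and 46.0 CPM in agonist replicates 1, 2 and 3 and 80.0, 50.7 and 96.5 CPM in vehicle replicates 1, 2 and 3. The agonist libraries lay close together below all vehicle libraries, but vehicle replicate 2 was much nearer to them than to the other vehicle libraries. The agonist mean was 43.9 ± 2.41 CPM and the vehicle mean 75.7 ± 23.2 (SD, n = 3). On the log2 scale the difference was -0.79 ± 0.23 (SE), with a 95% interval of -1.32 to -0.26. The unadjusted edgeR p was 0.00934 and the adjusted p 0.99. In TPM the groups of Notch3 overlapped, since vehicle replicate 2 had 6.93 TPM and the agonist libraries 6.86, 7.93 and 7.8.

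Notch1, the receptor often mutated in T-cell leukaemia, lies on chromosome 2 (26457903 to 26516663, minus strand). It was measured at 70.1, 104 and 84.8 CPM in agonist replicates 1, 2 and 3 and at 118, 113 and 114 CPM in the vehicle replicates. Here the vehicle libraries were the uniform ones, all above the highest agonist library. The agonist mean was 86.5 ± 17.2 CPM and the vehicle mean 115 ± 2.8 (SD, n = 3). On the log2 scale the difference was -0.41 ± 0.17 (SE), interval -0.82 to -0.0093, with an unadjusted edgeR p of 0.046 and an adjusted p of 0.99. In TPM the groups touched, with 13.3 in agonist replicate 2 and 13.2 in vehicle replicate 2. Genes on the opposite strand share exon sequence with Notch1, namely 0610009E02Rik over 1068 bases and Gm13568 over 414 bases. They held 404 to 514 and 105 to 232 expected counts per library, beside 2589 to 5184 for Notch1, and without a stated strand setting such reads cannot be told apart.

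For Notch2 and Notch4 the groups overlapped widely and the intervals reached to both sides of 0. Notch2 (chromosome 3, 98013527 to 98150361, plus strand) had 34.9, 23.5 and 39.2 CPM with agonist and 47.1, 40.7 and 20.8 CPM with vehicle, and its lowest and highest libraries were both vehicle. Its log2 fold change was -0.15 ± 0.33 (SE), with an interval of -0.92 to 0.61, and it turned positive without agonist replicate 2 (0.033) or vehicle replicate 1 (0.082). Notch4 (chromosome 17, 34564268 to 34588503, plus strand), a receptor known mainly from endothelium and from mouse mammary tumours in which the virus inserts into the gene, had 4.85, 3.47 and 3.32 CPM with agonist and 4.33, 2.66 and 3.78 CPM with vehicle. Those groups covered nearly the same range, and the log2 fold change was 0.11 ± 0.35 (interval -0.70 to 0.92). It turned negative without agonist replicate 1 (-0.085) or vehicle replicate 2 (-0.069).

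Promoter sequences of RefSeq (GRCm38.p6) were found for 8 of the 10 genes, all but Hes1 and Hey1, with 2 starts for Dll1. They were searched on both strands, over the 250 bases before the start, for the RBPJ core TGGGAA, for CACGTG (the E-box bound by Hey and Hes repressors), for the N-box CACNAG bound by Hes repressors, and for AGGTCA repeated in the same orientation with a spacer of 4 bases, the DR4 element of LXR. The RBPJ core, the E-box and the DR4 element had no match in the windows of the 8 genes. Of all 32851 promoters in the table, 21.6% held the RBPJ core, 6.02% the E-box and 0.0152% the DR4 element. The N-box was found in the windows of Notch1, Notch2, Notch3 and Dll4, and in 36.7% of all promoters. The windows of Notch1 (chr2:26503823-26504072, minus strand) and Notch3 (chr17:32166891-32167140, minus strand) are shown, as the 2 members lower in all agonist libraries in CPM. N-box matches on either strand are in capitals. Both windows are rich in G and C, at 66% and 68.8%.
Notch1: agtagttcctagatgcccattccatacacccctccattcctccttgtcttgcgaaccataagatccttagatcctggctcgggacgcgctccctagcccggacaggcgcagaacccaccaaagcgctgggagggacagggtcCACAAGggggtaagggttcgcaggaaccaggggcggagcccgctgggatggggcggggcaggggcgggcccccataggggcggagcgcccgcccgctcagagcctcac
Notch3: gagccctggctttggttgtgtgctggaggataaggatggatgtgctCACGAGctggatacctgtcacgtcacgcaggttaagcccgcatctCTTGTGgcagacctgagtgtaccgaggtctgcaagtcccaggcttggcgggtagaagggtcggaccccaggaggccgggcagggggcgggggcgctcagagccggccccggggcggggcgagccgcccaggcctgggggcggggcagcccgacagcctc
The match in Notch1 begins 108 bases before the RefSeq start, and those in Notch3 begin 204 and 159 bases before it. The matches are a description of these letters, since binding was not measured.

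Of the ligands, Jag1 and Jag2 had higher means with agonist and Dll1 and Dll4 lower ones, and in each pair a single library carried most of the difference. Jag2 (chromosome 12, 112907819 to 112929776, minus strand) had 9.29, 9.74 and 19.3 CPM with agonist and 8.80, 8.87 and 4.80 CPM with vehicle. Agonist replicate 3 was far above the rest, and the other agonist libraries exceeded the highest vehicle libraries by less than the spread within either group. In TPM the groups of Jag2 overlapped, with 2.85, 4.34 and 7.61 with agonist and 3.25, 3.85 and 1.86 with vehicle. The log2 fold change was 0.77 ± 0.38 (SE), interval -0.12 to 1.66, with an unadjusted edgeR p of 0.08 and an adjusted p of 0.99. It was 0.35 without agonist replicate 3.

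Jag1 (chromosome 2, 137081456 to 137116644, minus strand) had 10.4, 7.004 and 19.6 CPM with agonist and 6.70, 8.97 and 5.79 CPM with vehicle. Agonist replicate 3 was again the highest library and vehicle replicate 3 the lowest, and the groups overlapped in CPM. In TPM they did not, with 2.05, 1.87 and 4.8 with agonist and 1.52, 1.78 and 1.28 with vehicle. The log2 fold change was 0.79 ± 0.40 (SE), interval -0.14 to 1.71, with an unadjusted edgeR p of 0.0855 and an adjusted p of 0.99. It was 0.28 without agonist replicate 3. In that library the 10 basal and myoepithelial markers summed to 337 TPM, against 44.2 to 151 in the other 5, with all 10 above 0 in every library. Their summed level ran from 135 to 337 TPM with agonist and from 44.2 to 151 with vehicle, and the basal list was lowest in vehicle replicate 3, where both Jagged genes were lowest too. The part of basal cell content in the Jagged values was not tested.

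Dll1 (chromosome 17, 15367354 to 15376872, minus strand), a ligand known from mammary stem cells, had 44.7, 43.5 and 31.6 CPM with agonist and 36.2, 39.2 and 191 CPM with vehicle. Vehicle replicate 3 alone stood far above all other libraries, which lay close together regardless of group. The log2 fold change was -1.16 ± 0.67 (SE), interval -2.77 to 0.46, with an unadjusted edgeR p of 0.132 and an adjusted p of 0.99. It was 0.086 without that library. A lincRNA on the opposite strand, A930024N18Rik, shares 867 exonic bases with Dll1. Its annotated identifier matched none of the gene rows, so it had no counts of its own. Whether its reads entered those of Dll1 was not tested.

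Dll4 (chromosome 2, 119325784 to 119335962, plus strand), the ligand of sprouting endothelial tip cells, had 6.42, 7.27 and 6.18 CPM with agonist and 5.97, 6.87 and 15.7 CPM with vehicle. The same vehicle library was the only one outside a narrow range. The log2 fold change was -0.52 ± 0.40 (SE), interval -1.44 to 0.40, with an unadjusted edgeR p of 0.226 and an adjusted p of 0.99. It was 0.049 without vehicle replicate 3. In that library the 12 endothelial markers were at their lowest, with a sum of 26.6 TPM against 40.3 to 65.0 in the other 5 libraries. The endothelial sum ran from 40.3 to 65.0 TPM with agonist and from 26.6 to 58.8 with vehicle, with no marker at 0.

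The targets differed from each other in pattern. Hey1 (chromosome 3, 8663359 to 8667256, minus strand), a basic helix-loop-helix repressor, had 224, 249 and 239.9 CPM with agonist and 397, 240.2 and 404 CPM with vehicle. Vehicle replicates 1 and 3 were far above the rest, and vehicle replicate 2 lay within the agonist range. The agonist mean was 238 ± 12.4 CPM and the vehicle mean 347 ± 92.7 (SD, n = 3). On the log2 scale the difference was -0.55 ± 0.22 (SE), interval -1.05 to -0.041, with an unadjusted edgeR p of 0.0375 and an adjusted p of 0.99. Without vehicle replicate 2 it was -0.76, and without vehicle replicate 3 it was -0.43.

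Hes1 (chromosome 16, 30064384 to 30067796, plus strand), the classical Notch target and also a helix-loop-helix repressor, had 42.4, 19.2 and 26.9 CPM with agonist and 39.9, 30.8 and 37.8 CPM with vehicle. Both its highest and its lowest library were agonist libraries. The log2 fold change was -0.29 ± 0.28 (SE), interval -0.95 to 0.36, with an unadjusted edgeR p of 0.329 and an adjusted p of 0.99. It ran from -0.65 without agonist replicate 1 to -0.063 without agonist replicate 2.

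**Figure D2:**
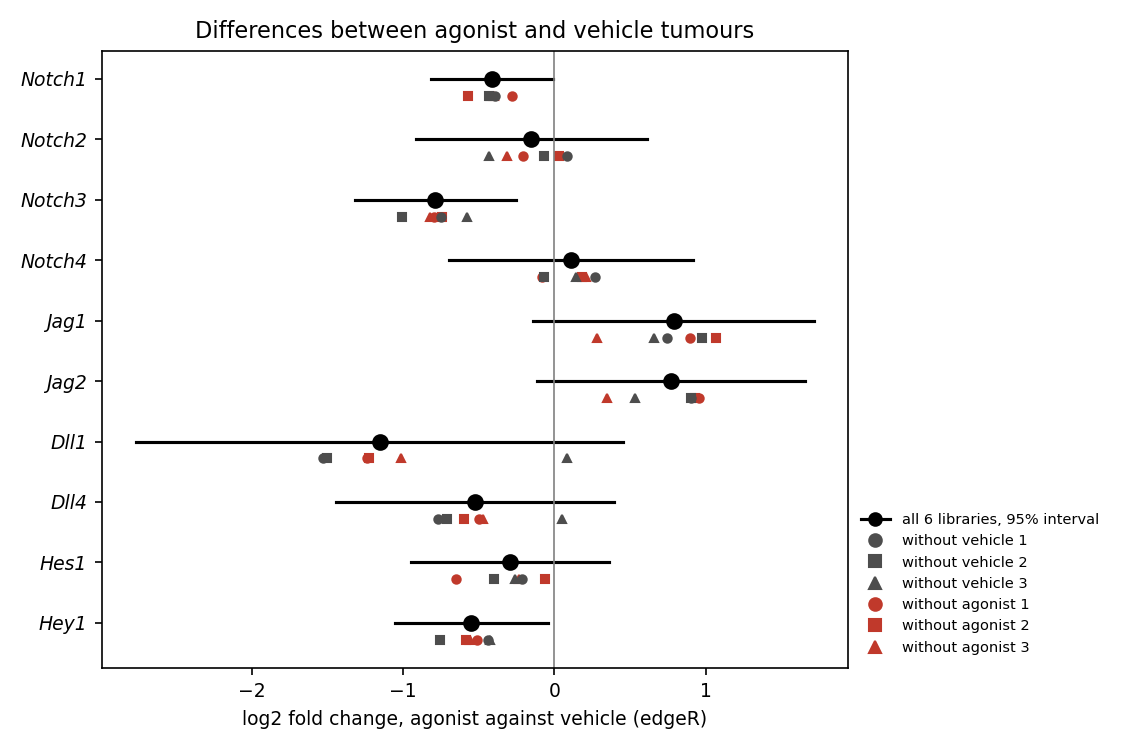
Log2 fold change of each Notch gene, agonist against vehicle, by edgeR (black points, with 95% intervals), and below each the value with 1 library left out (coloured symbols). Notch1, Notch3, Hes1 and Hey1 stay below 0 with every library left out and Jag1 and Jag2 above 0. Dll1 and Dll4 cross 0 without vehicle replicate 3, and Notch2 and Notch4 cross 0 without other libraries.

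The deposited tables also give, per gene and library, a transcript length weighted by the estimated abundance of the gene's transcripts, a readout of which transcripts the reads were assigned to. For Notch1 it was 9414, 9060 and 8905 bases in agonist replicates 1, 2 and 3 and 8495, 7969 and 7790 bases in the vehicle replicates. All agonist libraries were longer than any vehicle library. The means were 9126 ± 261 and 8085 ± 367 bases (SD, n = 3). Of the 13284 tested genes whose length varied between libraries, 4.49% were longer in all agonist libraries and 3.69% were shorter. The 11 annotated Notch1 transcripts run from a full-length coding one of 9488 bases and 34 exons to fragments of 157 bases, and 2 of them are protein coding. A retained-intron transcript has 4132 bases. The part of transcript length in the TPM of Notch1 was not tested.

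Groups overlapped in length for the other members in which it varied. Notch4 was furthest from its full-length transcript of 6591 bases, with weighted lengths from 1444 to 2492 bases over the 6 libraries, and the annotation lists 12 transcripts for it, of which 1 is protein coding. Notch3 ranged from 5471 to 7042 bases, with a longest transcript of 8016 bases. Dll1 ranged from 1991 to 2667 bases, with a longest of 3581, and Jag2 from 2364 to 3685, with a longest of 5106. Hey1 and Hes1 stayed within 2309 to 2378 and 1338 to 1418 bases, close to their longest transcripts of 2423 and 1468 bases. Notch2 at 10500 and Dll4 at 3747 bases were constant, as all their reads were assigned to 1 transcript length.

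**Figure D3:**
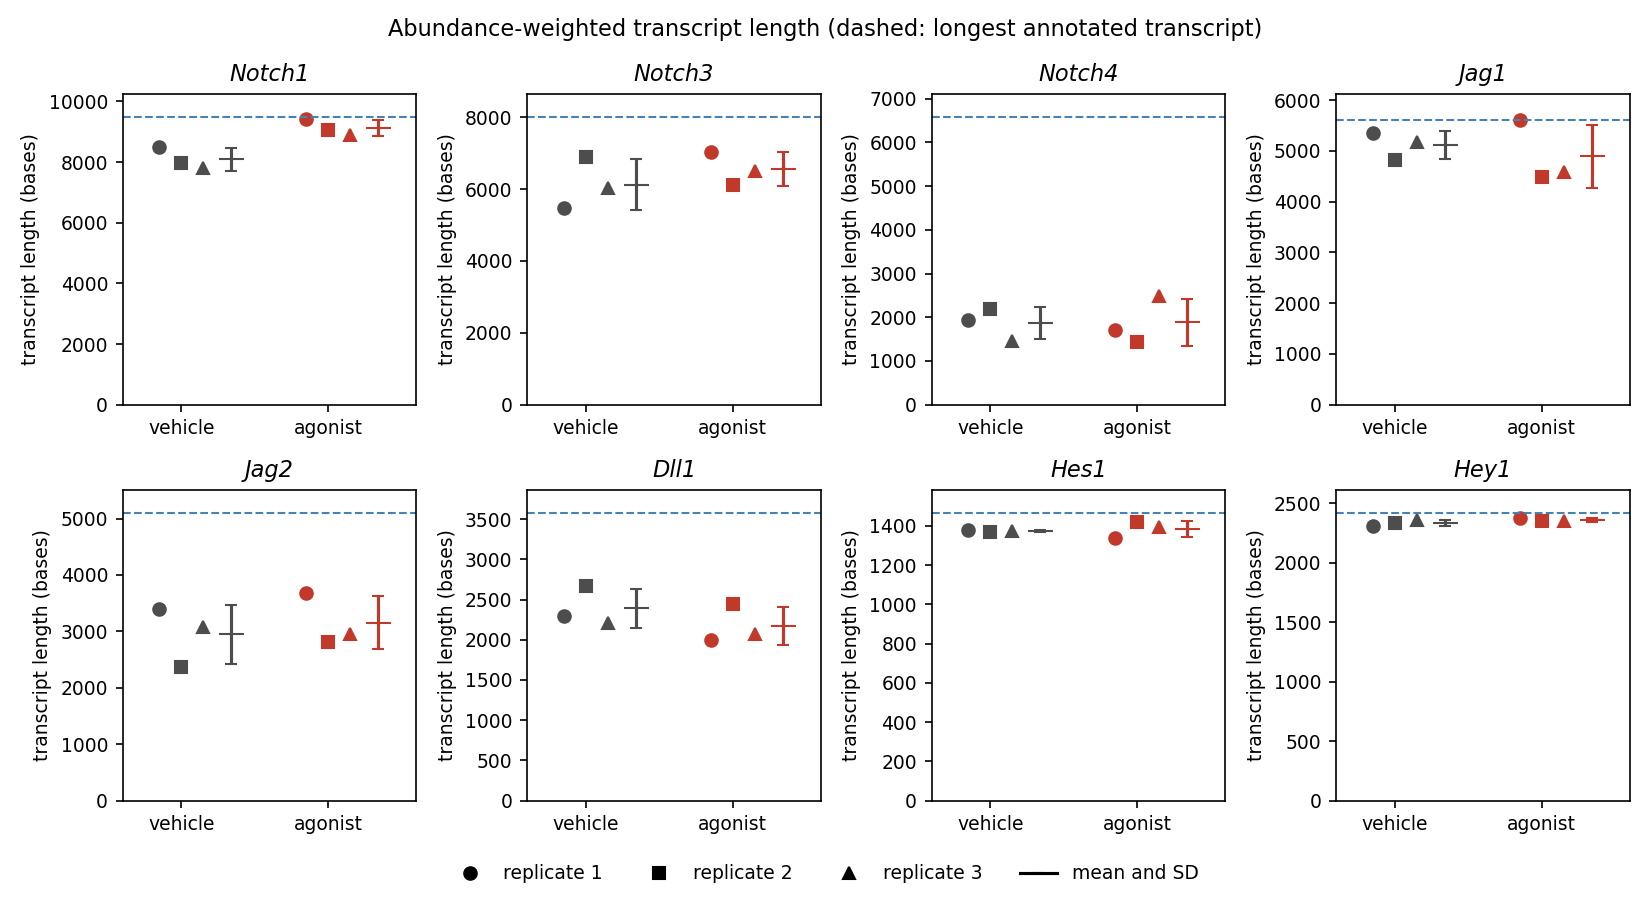
Abundance-weighted transcript length in bases (y axis from 0) of the 8 Notch genes in which it varied, by library, with group mean and SD and the longest annotated transcript as a dashed line. Notch1 is longer in the 3 agonist libraries (8905 to 9414 bases) than in the 3 vehicle libraries (7790 to 8495).

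Since Dll4 and Notch4 are known in endothelium, Notch3 in mural cells and the pathway in luminal cells, the level of each gene was set beside the scores of these 3 marker lists over the 6 libraries, a family of 30 relations. None passed after adjustment (lowest adjusted p = 0.573 for Pearson's r and 0.829 for Spearman's rho, exact permutation tests), and 1 had an unadjusted p under 0.05. That was Hey1, which ran opposite to the endothelial list (r = -0.83, exact p = 0.0278; rho = -0.71, exact p = 0.136). Without vehicle replicates 2 and 3, the libraries farthest from the median score, r was -0.68. Notch3 ran opposite to the mural list (r = -0.69, exact p = 0.153; rho = -0.49, exact p = 0.356), with r = -0.42 without the same libraries. For Dll4 and the endothelial list r was -0.67 (exact p = 0.144) while rho was -0.029 (exact p = 1), and r was 0.54 without those libraries, so the relation rests on them. Notch4 gave r = -0.15 with the endothelial list (exact p = 0.774; rho = -0.31, exact p = 0.564), and 0.45 without them. The fibroblast list ran highest in vehicle replicate 2, at a score of 1.18, and lowest in vehicle replicate 3, at -1.97, where a score is the mean deviation of the list from the 6 libraries in log2 CPM. The part of cell makeup in the Notch values was not tested.

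**Figure D4:**
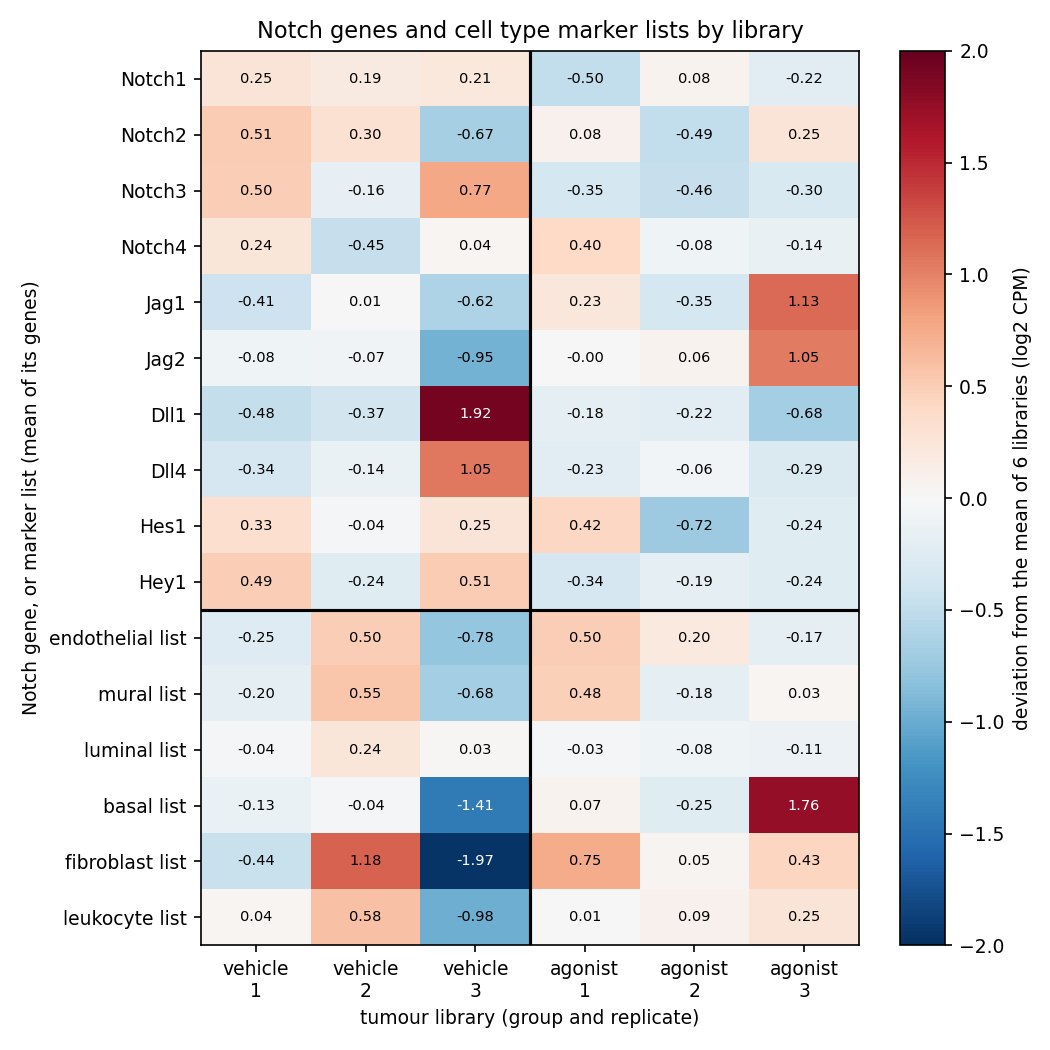
Deviation of each Notch gene, and mean deviation of each marker list, from its mean over the 6 libraries (log2 CPM, values printed in the cells; red above and blue below the mean). Vehicle replicate 3 has the highest Dll1 (1.92) and Dll4 (1.05) with the lowest endothelial (-0.78) and fibroblast (-1.97) lists, and agonist replicate 3 has the highest Jag1 (1.13), Jag2 (1.05) and basal list (1.76).

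Among 43 other genes of the pathway, 40 were tested, 18 with positive and 22 with negative log2 fold changes and a median of -0.056. No gene passed an adjusted p of 0.05 by edgeR. At an unadjusted p under 0.05 there were 0 higher and 3 lower, Spen, Mib2 and Rfng, beside 0.719% and 2.37% of all genes. The count of 3 moved to 0 without vehicle replicate 1, to 1 without agonist replicate 1 or agonist replicate 2, and to 6 without vehicle replicate 2. The counts over all genes also moved in these fits. From 538 with all 6 libraries they went to 376 without vehicle replicate 1 and 445 without agonist replicate 1. Without agonist replicate 2 there were 620, and without vehicle replicate 2 there were 2442. In CPM, groups did not overlap for 0 higher and 2 lower genes of the 40, where 3.02% and 4.22% of all tested genes did so. These were Spen and Dtx2, the latter named after its values were seen, with 11.1 to 12.3 CPM in the agonist libraries and 12.6 to 14.4 in the vehicle libraries. In TPM, Spen was again lower without overlap, but the groups of Dtx2 overlapped. Maml2 and Adam17, the latter also named after its values were seen, were higher without overlap in TPM. No share over all genes was taken in TPM.

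Spen, a corepressor of RBPJ, had 16.3, 25.2 and 24.3 CPM with agonist and 31.8, 32.3 and 30.3 CPM with vehicle, a log2 fold change of -0.52 ± 0.20 (SE), with an unadjusted edgeR p of 0.0284 and an adjusted p of 0.99. Of the other 6 genes of the nuclear complex none reached that threshold, and the coactivator Maml2 was at 0.22 ± 0.18. Among the enzymes that modify the receptors with sugars, Rfng (Radical fringe) had 33.6, 37.9 and 45.7 CPM with agonist and 67.9, 39.0 and 78.2 CPM with vehicle. Its log2 fold change was -0.66 ± 0.26, and vehicle replicate 2 lay within the agonist range, as it did for Hey1. Lfng (Lunatic fringe), a paralogue, was at 0.38 ± 0.55, with its lowest level of 1.84 CPM in vehicle replicate 3.

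Ligases that ubiquitinate the ligands included Mib2, with 51.2, 42.9 and 45.2 CPM with agonist and 82.7, 50.8 and 63.3 CPM with vehicle (-0.50 ± 0.20), and Neurl1a (-1.69 ± 0.81). For Neurl1a vehicle replicate 1 alone was high, at 16.4 CPM against 1.69 to 3.04 in the other 5 libraries. The 10 proteases split into 5 positive and 5 negative, with Furin, which cleaves the receptors during their maturation, at -0.32 ± 0.26 and Adam10 at 0.16 ± 0.15. Of the inhibitors and turnover genes, Dtx3, a Deltex ligase, had 89.6, 108 and 87.0 CPM with agonist and 188, 83.9 and 149.8 CPM with vehicle (-0.57 ± 0.28). Numb, an inhibitor of the pathway, was at -0.61 ± 0.43, with 316 CPM in vehicle replicate 3 and 93.3 to 142 elsewhere, so that the library highest in Dll1 was also the highest in Numb.

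Of the further targets, Nrarp, which also limits Notch signalling, had a log2 fold change of -0.29 ± 0.30, and Hes7 one of -0.72 ± 0.53. The imprinted ligand-like gene Dlk1 was at 0.53 ± 0.79, with 0.27 to 1.1 TPM over the 6 libraries. Dll3, Dlk2 and Hes5 did not pass the filter, and Hes5 had 0 to 3 expected counts per library, at which no difference could be detected.

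**Figure D5:**
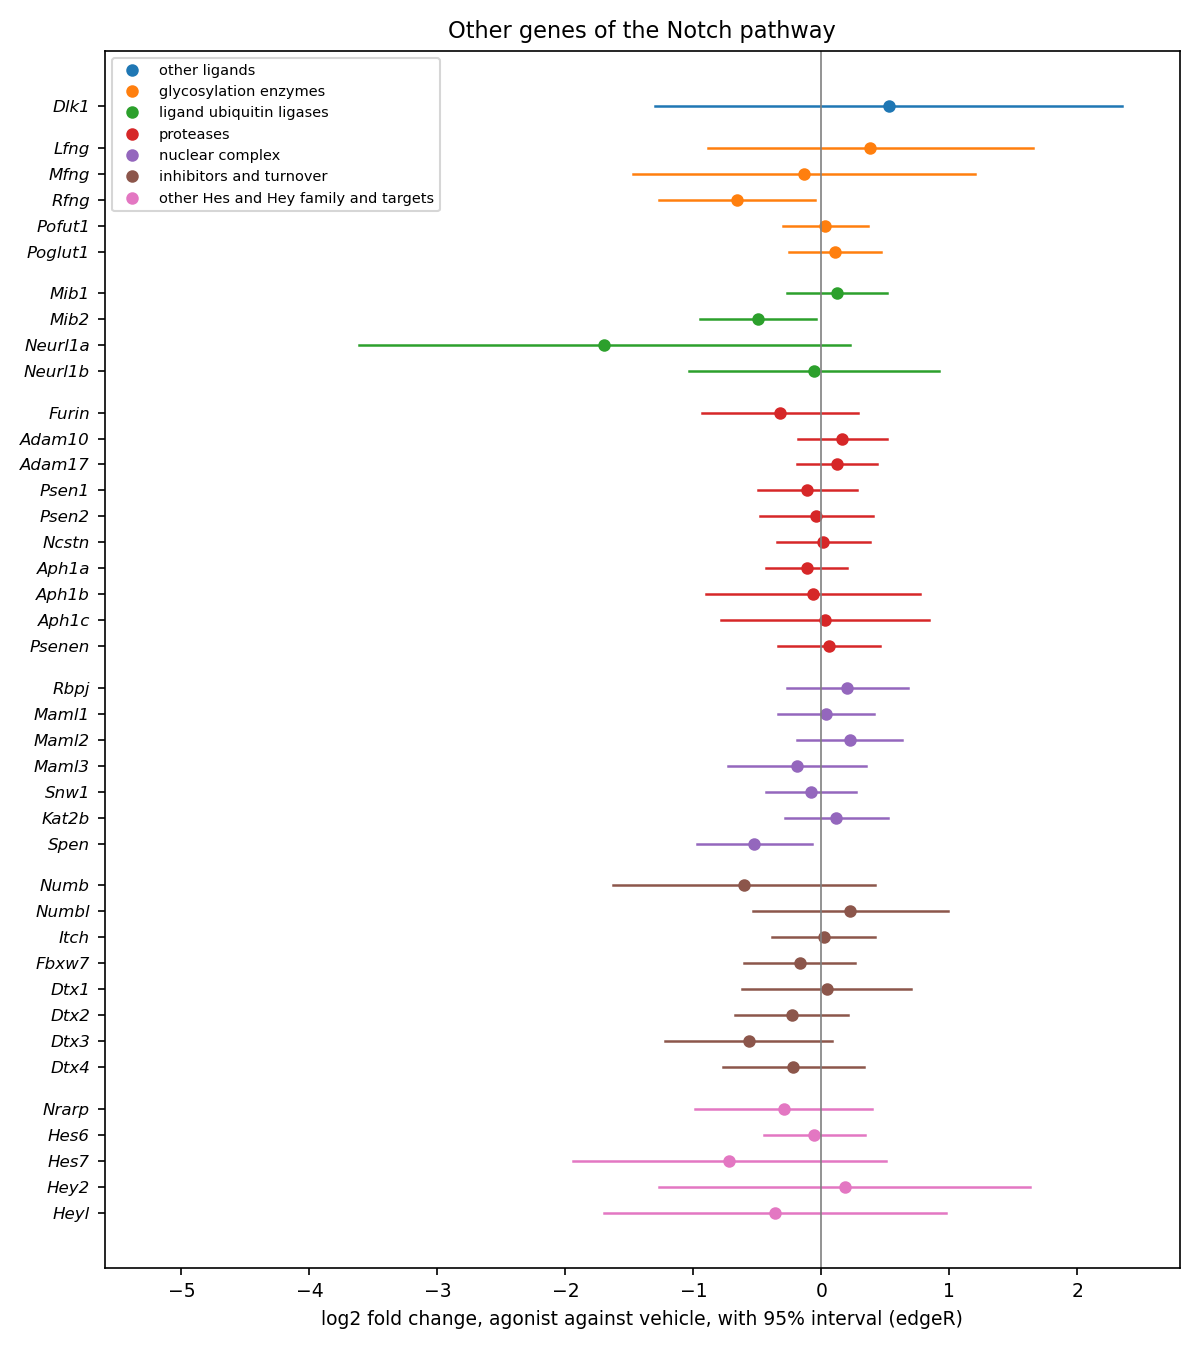
Log2 fold change, agonist against vehicle, with 95% interval by edgeR for the 40 tested genes of the wider pathway, coloured by role. The intervals of Rfng, Mib2 and Spen lie below 0 before adjustment, and those of the proteases and nuclear factors other than Spen include 0.

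Likeness in level was measured as Pearson's r in log2 CPM over the 6 libraries against 13096 tested genes whose mean log2 CPM was 1 or more. Between 11 and 153 genes exceeded 0.95 with each member, so the top matches are a description of 6 points. Dll1 and Dll4 were each other's most similar gene (r = 0.99), both shaped by vehicle replicate 3. Hey1 was most like Rrp1, a ribosomal RNA processing gene, and Atat1, a tubulin acetyltransferase (both r above 0.99), and 153 genes exceeded 0.95 with it. Notch3 was most like Sft2d3 and Aspscr1, and Notch1 most like Tmco6 and Ccdc93. Jag2 was most like the proteasome gene Psmc4 and Col17a1, a collagen of basal epithelial cells, which is among the basal markers. Jag1 was most like Glipr1 and Npat, and Notch2 most like Lsm11 and Tm4sf1. Hes1 was most like Dpp10 and Gm48226, and the second matches of Dll1 and Dll4 were Gm47694 and Nek4. All these coefficients were 0.98 or more.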

How the data were processed

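Gene-level tables of 6 tumour libraries were used. Per the file headers, the deposited expected counts, TPM and transcript lengths are those of RSEM, which shares reads among transcripts. The submitters' processing notes list RSEM 1.3.1, STAR 2.7.9a, cutadapt 3.5 and the build GRCm38 without roles. Neither annotation release nor strand setting is given in the sources used here. Of 55487 gene identifiers, 55227 were found in GENCODE M21, the source of positions and transcripts.

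Expected counts were rounded and tested with edgeR 4.0.16 in R 4.3.3: TMM, filterByExpr (minimum count 10, minimum total 15), robust quasi-likelihood F test of group, no covariates, Benjamini-Hochberg adjustment over 17396 genes, called under 0.05. Standard errors were derived from the fold change and its F statistic. CPM are scaled to TMM-adjusted totals of tested genes, and scores use a prior count of 2. On that CPM scale 3 counts equal 0.0684 to 0.0813, counting error only, as no molecular identifiers are stated. The fits were tested on simulated data. Correlations were tested by permuting all 720 pairings.

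Members, lists and named genes were chosen with earlier results of these data known. Named are the 10 genes, the 2 lowest unadjusted p-values per role among other pathway genes, and the 2 genes most like each member; those of Notch4 are not reported here. Alternatives were upper-quartile factors, DESeq2 size factors, no filter, a stricter filter (3 libraries with CPM of 1 or more), a block for the replicate number, leaving out each library, the DESeq2 1.42.0 Wald test, and limma-trend (limma 3.58.1) on log2(TPM + 1) and log2(TPM + 0.1). FPKM was not used.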

Additional observations from a re-analysis of the deposited data

How the results depend on the processing

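Over 14 alternatives the log2 fold changes of the 10 Notch genes gave 140 values, of which 134 kept their direction without passing the threshold and 6 turned. Those 6 were Dll1 (0.086) and Dll4 (0.049) without vehicle replicate 3, Notch2 (0.033 without agonist replicate 2, 0.082 without vehicle replicate 1) and Notch4 (-0.085 without agonist replicate 1, -0.069 without vehicle replicate 2). The cause was not tested. With single libraries left out, values ran from -1.53 to 0.086 for Dll1, from -0.77 to 0.049 for Dll4, from -0.43 to 0.082 for Notch2 and from -0.085 to 0.27 for Notch4. No edgeR or limma fit called a gene, whereas the DESeq2 Wald test called 8 genes, none of the 10. It also had 3 of the 10 at an unadjusted p under 0.05, with Dll1 in place of Notch1. The lowest adjusted p of the 10 over these settings was 0.262, without vehicle replicate 2. With libraries left out the called genes stayed at 0, and genes at an unadjusted p under 0.05 ran from 315 without agonist replicate 3 to 2442 without vehicle replicate 2. The count of other pathway genes at an unadjusted p under 0.05 ran from 0 to 6 with libraries left out and was 0 with limma-trend on log2(TPM + 1). With no filter on low counts 847 genes had an unadjusted p under 0.05. On the log2(TPM + 1) scale Dll4 was at -0.27 and Dll1 at -0.51, and Dll1 was at -0.65 with the replicate block.

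Same-numbered libraries deviated together with correlations of 0.172, 0.0377 and 0.0628, beside -0.109 to 0.055 for libraries of different numbers. With 3 libraries per group, these values do not decide whether the numbers pair the samples. The paired fit with the replicate block called 0 genes, with 488 at an unadjusted p under 0.05 against 538, left the pathway count at 3, and placed 1 of the 10 Notch genes under that threshold in place of 3. Of the 10 Notch genes depth bears most on Notch4, with 100 expected counts in its lowest library. Of the other tested pathway genes, Dlk1 had 4 to 43, and Dll3, Dlk2 and Hes5 were not tested.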
